A study of Homo sapiens with 6 samples.

Results

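The tight junction genes described here are 9 named genes, CLDN1, CLDN3, CLDN4, CLDN7, CLDN12, OCLN, TJP1, TJP3 and F11R, taken by symbol from the 36887 genes of an RNA-seq count table. All 9 had a row in the table, and all 9 were among the 21036 genes with enough counts to be tested. The table holds 6 samples of 5637 cells, an established human bladder cancer line with a genotype labelled WT. In 3 samples the cells carried siNC, the control siRNA, and in the other 3 siYKT6, siRNA against YKT6 (the sources used here do not give which sequence), and RNA was taken 48 h after transfection. YKT6 is a SNARE, one of the proteins that fuse vesicles with their target membranes, and the study asked what its loss does in bladder cancer cells. The 2 groups came from 1 cell line, all 6 samples carried 1 batch label, and neither the labels nor the methods say whether the samples of a group were separate cultures, so the p values measure the spread between these samples, which may be technical.

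Tight junctions are belts of protein strands near the apex of epithelial cells that close the space between neighbouring cells. Claudins are membrane proteins that form the strands and set which ions can pass, occludin (OCLN) and the junctional adhesion molecule JAM-A (F11R) lie beside them, and the zonula occludens proteins ZO-1 (TJP1) and ZO-3 (TJP3) tie the strands to actin from the inside. In urothelium, the lining of the bladder, the junctions between the surface cells are part of the barrier to urine.

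YKT6 itself was measured first. Its level was 64.5, 65.3 and 68.2 CPM (counts per 1000000 counts, on library sizes corrected by the trimmed mean of M values) across siNC, and 17.7, 19.4 and 17.3 CPM across siYKT6. The siYKT6 mean was 27.5% of the siNC mean, a log2 fold change of -1.86 (SE 0.0477, adjusted p = 5.3e-17, edgeR quasi-likelihood test with Benjamini-Hochberg adjustment over all genes tested), and every sample carried the level its label implies. Total counts ran from 45205238 to 64982015 per sample. All 12 epithelial markers examined were detected, among them EPCAM, CDH1 and KRT8, and their summed level lay at 5920 to 6086 CPM in siNC and 3974 to 4231 CPM in siYKT6. Of these 12 genes 5 fell, KRT5, KRT8, KRT17, KRT19 and CDH1, while EPCAM and SPINT1 rose and 5 were not called. These are 41.7% lower and 16.7% higher, against 16.3% and 14.6% of all genes tested. Leukocyte and endothelial markers were near the floor, with 10 of 11 leukocyte and 9 of 9 endothelial genes under a mean of 1 CPM, summing to 4.90 to 5.42 and 1.10 to 1.68 CPM in siNC and to 3.67 to 4.69 and 1.77 to 2.07 CPM in siYKT6. Among the 10 fibroblast markers 5 were under 1 CPM, and the list summed to 39.7 to 41.2 CPM in siNC and 44.1 to 47.1 CPM in siYKT6. Of the 7 urothelial differentiation markers in the table, UPK1B and KRT20 had between 0 and 2 counts in every sample. UPK2 had 43 to 93 counts per sample and UPK3B 17 to 33, while GATA3, PPARG and FOXA1 were expressed at higher levels. Of the 5 that were tested, PPARG fell (log2 fold change -0.34, adjusted p = 1.5e-05, edgeR), FOXA1 rose and 3 were not called. That is 20% lower and 20% higher, against the same background. The part of these lists in the results below was not tested.

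Of the 9 genes, 2 fell (CLDN1 and CLDN12), 3 rose (CLDN3, CLDN4 and F11R) and 4 were not called (CLDN7, OCLN, TJP1 and TJP3) at an adjusted p under 0.05. Among all genes tested, 16.3% were called lower and 14.6% higher, 30.8% in either direction, and of the 9 genes 22.2% were lower and 33.3% higher. The 3 higher genes include CLDN3, which entered the test through the siYKT6 samples, where it was high, and 2 were called higher with no filter on low counts, with at least 1 CPM in every sample, with halved counts or with DESeq2. The same 5 genes were the ones whose siNC and siYKT6 samples did not overlap, and over all genes tested the groups did not overlap in 21.5% of genes on the lower side and 20.3% on the higher side, 41.8% in all. The median log2 fold change was 0.01 over the 9 genes and 0.0022 over all genes tested. In bulk RNA such as this, fewer cells that express a gene and less of its RNA per cell cannot be told apart.

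**Figure D1:**
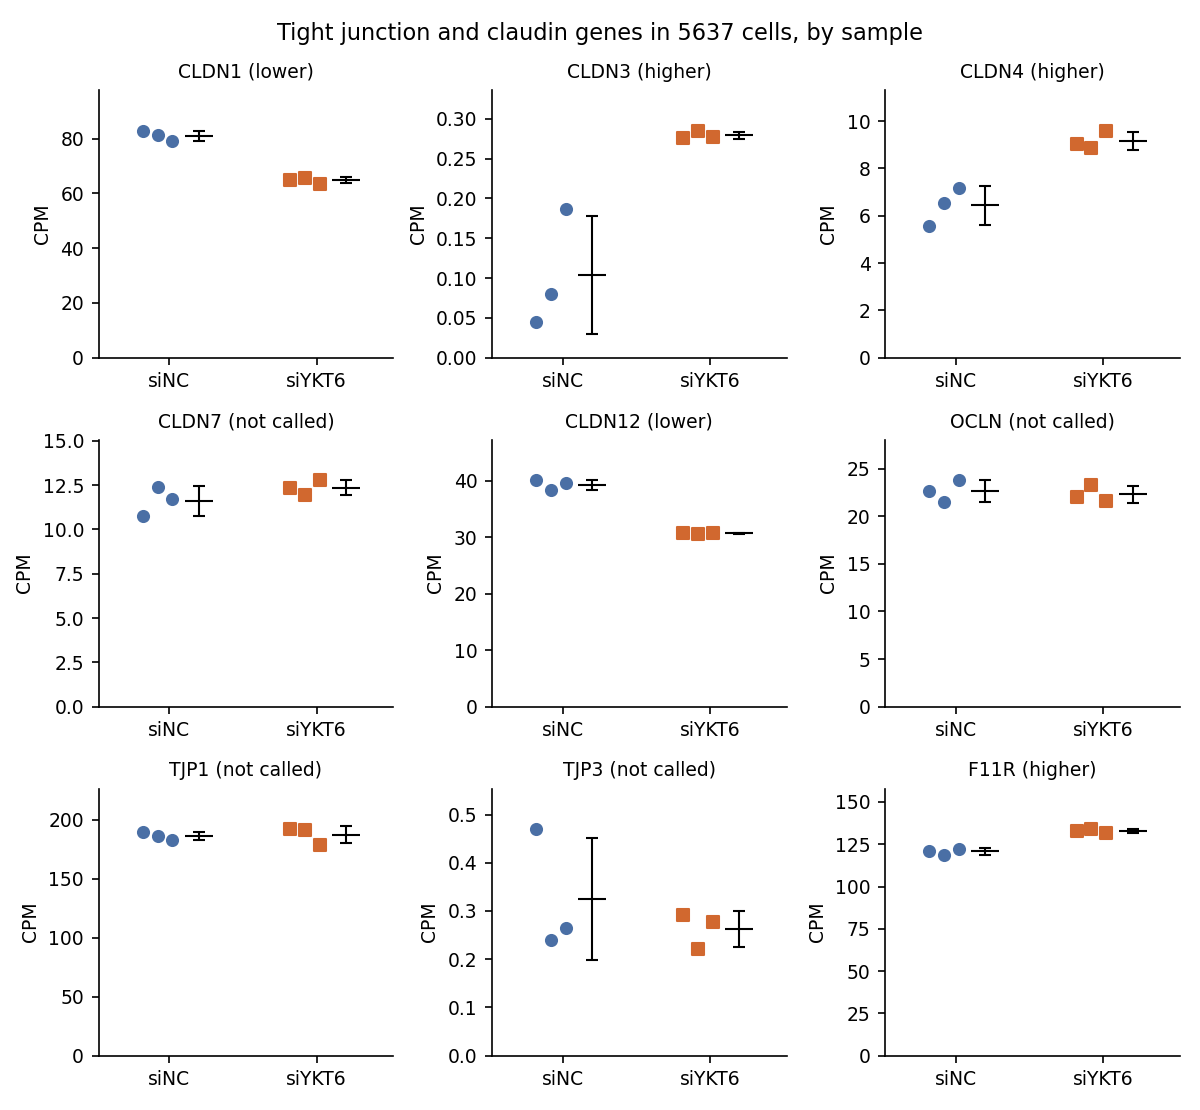
Level of each of the 9 genes in CPM (y axis, from 0) in the 3 siNC samples (blue circles) and the 3 siYKT6 samples (orange squares), with the mean and SD of each group as a black bar beside the points. CLDN1 and CLDN12 sit lower in every siYKT6 sample, CLDN3, CLDN4 and F11R higher, and the points of CLDN7, OCLN, TJP1 and TJP3 overlap between groups.

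CLDN1 and CLDN12, the claudins with the highest levels per length in siNC, both lost about the same share of their RNA. CLDN1, a claudin that seals the space between cells and without which the skin barrier fails in mice, is on chromosome 3 (GRCh38 chr3:190305701-190322475, minus strand). It was measured at 82.7, 81.2 and 79.1 CPM in siNC and at 64.9, 65.7 and 63.6 CPM in siYKT6. The lowest siNC sample was above the highest siYKT6 sample, and the siYKT6 mean was 79.9% of the siNC mean, 64.7 ± 1.11 against 81.0 ± 1.80 CPM (SD, n = 3 each). The log2 fold change of CLDN1 was -0.32 (SE 0.0367, 95% interval -0.40 to -0.25, adjusted p = 5.8e-07, edgeR).

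CLDN12, a claudin that lacks the tail by which most claudins bind the zonula occludens proteins, lies at chr7:90383721-90513402 on the plus strand. Its samples read 40.1, 38.3 and 39.6 CPM in siNC and 30.9, 30.7 and 30.7 CPM in siYKT6. The groups were well apart, and the siYKT6 samples differed from each other by an SD of only 0.104 CPM around a mean of 30.8 CPM, against 39.3 ± 0.912 CPM in siNC (n = 3 each). This is 78.2% of the siNC mean and a log2 fold change of -0.36 (SE 0.0419, 95% interval -0.44 to -0.27, adjusted p = 9.2e-07, edgeR). CLDN12 shares 16.3% of its exonic bases with 4 other genes on the same strand. Of these, the small gene CTB-13L3.1 also fell (log2 fold change -0.49, adjusted p = 0.00115, edgeR), CDK14 rose (0.17, adjusted p = 0.00178), and GTPBP10 and AC006153.3 were not called. The sources used here do not give how reads in such shared exons were counted.

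CLDN4 and CLDN3, neighbours on chromosome 7 that both serve as receptors for Clostridium perfringens enterotoxin, moved the other way. CLDN4 (chr7:73799542-73832693, plus strand) stood at 5.57, 6.54 and 7.19 CPM in siNC and at 9.02, 8.88 and 9.57 CPM in siYKT6. The siNC samples spread more than the siYKT6 ones, with means of 6.43 ± 0.818 and 9.16 ± 0.367 CPM (SD, n = 3 each), but did not reach them. CLDN4 was thus 1.42-fold higher in siYKT6, with a log2 fold change of 0.50 (SE 0.0869, 95% interval 0.32 to 0.68, adjusted p = 0.000123, edgeR).

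CLDN3 (chr7:73768997-73770270, minus strand, 29272 bases from CLDN4) was barely expressed. Its raw counts were 2, 4 and 12 in siNC and 18, 18 and 16 in siYKT6, or 0.0447, 0.0801 and 0.187 CPM against 0.276, 0.284 and 0.277 CPM. Every siYKT6 sample was above every siNC sample, but the whole difference is one of 18 counts against 52 over 3 samples each. CLDN3 passed the filter on low counts only through the siYKT6 samples, since siNC replicates 1 and 2 had too few counts, and a gene that enters the test in this way had to differ. The log2 fold change was 1.32 with a wide error (SE 0.497, 95% interval 0.30 to 2.37, adjusted p = 0.0469, edgeR). The call was lost when any 1 sample other than siNC replicate 3 was left out (adjusted p = 0.0976 to 0.179, edgeR) and when no filter on low counts was used (adjusted p = 0.0642). All 6 of its counts were even, as were 68.8 to 70.0% of the counts between 1 and 20 in each sample of the table, and with counts halved CLDN3 no longer passed the filter.

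CLDN7, a claudin found along the lateral membrane where it binds EpCAM, was the third claudin by level per length in siNC and did not pass the test. It lies at chr17:7259903-7263983 on the minus strand. Its levels were 10.7, 12.4 and 11.7 CPM in siNC and 12.3, 12.0 and 12.8 CPM in siYKT6, and the groups overlapped. The log2 fold change was 0.09 with a 95% interval of -0.05 to 0.23 (adjusted p = 0.366, edgeR), which leaves out a change of the size seen in CLDN1, CLDN12 or CLDN4. CLDN7 shares 12.3% of its exonic bases with RP1-4G17.5 on the same strand and ELP5 on the opposite strand, and neither of these was called.

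**Figure D2:**
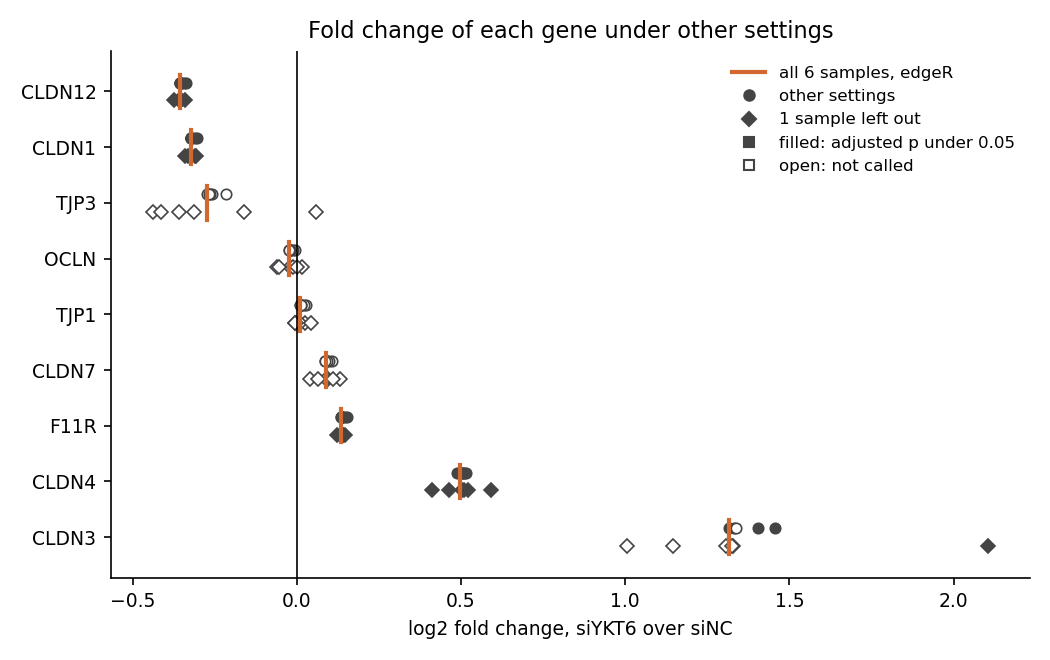
Log2 fold change of each gene (x axis, siYKT6 over siNC) with all 6 samples in edgeR (orange line), under the other settings (circles) and with 1 sample left out (diamonds), filled where the adjusted p was under 0.05. CLDN1, CLDN12, CLDN4 and F11R were called under all 14 alternatives, whereas CLDN3 ran from 1.01 to 2.11 and lost its call in 6 of the 11 that gave it a value.

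The promoters of the claudins that changed, and of CLDN7 for contrast, are shown to give the sequence around a RefSeq start site of each gene. They are RefSeq windows of GRCh38.p14 from 250 bases before to 50 bases after a start site, read 5′ to 3′ on the strand of the gene, and the capitals mark E-boxes (CACCTG or CAGGTG, the same word on either strand), to which the repressors SNAI1, SNAI2, ZEB1 and ZEB2 can bind. The windows are chr3:190322397-190322696 for CLDN1, chr7:90403211-90403510 for CLDN12, chr7:73830746-73831045 for CLDN4, chr7:73770221-73770520 for CLDN3 and chr17:7262429-7262728 for the second start site of CLDN7. Those of CLDN12, CLDN4 and CLDN7 lie inside the gene positions given above, and those of CLDN1 and CLDN3 span the start of the gene.
CLDN1: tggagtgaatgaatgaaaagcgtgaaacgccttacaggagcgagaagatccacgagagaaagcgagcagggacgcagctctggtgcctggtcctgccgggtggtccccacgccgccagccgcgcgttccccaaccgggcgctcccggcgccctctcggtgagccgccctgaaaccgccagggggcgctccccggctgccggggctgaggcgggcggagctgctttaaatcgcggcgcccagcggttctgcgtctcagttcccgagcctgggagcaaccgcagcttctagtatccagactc
CLDN12: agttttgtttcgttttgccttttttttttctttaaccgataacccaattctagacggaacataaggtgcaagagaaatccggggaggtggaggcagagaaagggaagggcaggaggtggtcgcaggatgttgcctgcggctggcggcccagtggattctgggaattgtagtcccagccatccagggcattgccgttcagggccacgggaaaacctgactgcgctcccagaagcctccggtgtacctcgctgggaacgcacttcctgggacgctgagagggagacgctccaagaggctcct
CLDN4: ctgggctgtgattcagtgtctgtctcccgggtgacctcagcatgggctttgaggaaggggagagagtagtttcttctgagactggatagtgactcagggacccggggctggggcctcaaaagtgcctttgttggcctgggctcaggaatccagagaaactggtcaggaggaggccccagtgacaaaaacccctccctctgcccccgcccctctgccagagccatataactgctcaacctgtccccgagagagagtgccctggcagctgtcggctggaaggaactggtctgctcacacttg
CLDN3: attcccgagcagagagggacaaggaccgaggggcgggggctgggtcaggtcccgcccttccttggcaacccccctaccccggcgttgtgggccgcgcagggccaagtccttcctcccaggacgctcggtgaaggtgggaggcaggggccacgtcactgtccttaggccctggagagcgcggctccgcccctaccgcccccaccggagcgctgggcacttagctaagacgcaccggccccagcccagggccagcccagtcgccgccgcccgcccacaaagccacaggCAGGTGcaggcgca
CLDN7: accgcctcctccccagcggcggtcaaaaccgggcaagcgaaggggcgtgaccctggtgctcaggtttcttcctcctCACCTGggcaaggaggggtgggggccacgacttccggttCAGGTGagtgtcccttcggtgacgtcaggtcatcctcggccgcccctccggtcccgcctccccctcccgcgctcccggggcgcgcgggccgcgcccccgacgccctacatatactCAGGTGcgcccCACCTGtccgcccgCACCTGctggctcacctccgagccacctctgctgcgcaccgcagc
An E-box was found in none of the windows of CLDN1, CLDN12 and CLDN4, in 1 place in CLDN3 and in 5 places in the CLDN7 window shown, at positions -174, -135, -20, -9 and 6 from the start site. The window of the first start site of CLDN7 (chr17:7263164-7263463), not shown, held no E-box. Of all 35116 promoter windows, 20.6% held at least 1 E-box and 0.0940% at least 5. RefSeq windows were matched for 8 of the 9 genes, 14 windows in all, of which 6 held an E-box, and the other ones belong to OCLN (both of its start sites), TJP1 and TJP3. The grainyhead-type word AACNNGTT and the TATA word TATAAA, searched on both strands, were in none of the 14 windows (3.52% and 11.5% of all windows), and CACGTG was in 1 TJP3 window (7.26% of all windows). No factor's binding was measured here, and a match of letters is not a site.

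Levels of different genes were compared per exon length, as RPKM (CPM divided by the exon length in kilobases). This length is that of all annotated exons of a gene merged, which can be longer than the transcripts the cells express. For CLDN4 it was 4702 bases in 5 merged exons over chr7:73799542-73832693, while the RefSeq window shown starts at 73830746. Which transcripts were expressed was not examined, so the order of the genes and their shares depend on these lengths. In siNC the order was F11R with 23.8 ± 0.368 RPKM, CLDN1 with 22.1 ± 0.491, TJP1 with 16.5 ± 0.315, CLDN12 with 5.84 ± 0.135, CLDN7 with 4.66 ± 0.331, OCLN with 3.35 ± 0.167, CLDN4 with 1.37 ± 0.174, CLDN3 with 0.0815 ± 0.0581 and TJP3 with 0.0770 ± 0.0299 RPKM (SD, n = 3 each). Only CLDN3 and TJP3 overlapped with their neighbour in this order. In siYKT6 the levels were 26.2 RPKM for F11R, 17.7 for CLDN1, 16.7 for TJP1, 4.96 for CLDN7, 4.56 for CLDN12, 3.30 for OCLN, 1.95 for CLDN4, 0.219 for CLDN3 and 0.0624 for TJP3, and no neighbours overlapped. CLDN12 was thus above CLDN7 in every siNC sample and below it in every siYKT6 sample. CLDN12, CLDN7 and F11R share 16.3%, 12.3% and 36.6% of their exonic bases with other genes. Their places in the order therefore also depend on how reads in shared exons were counted, which is not given. CLDN1 lay 1.34-fold above TJP1 in siNC and 1.06-fold above it in siYKT6.

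**Figure D3:**
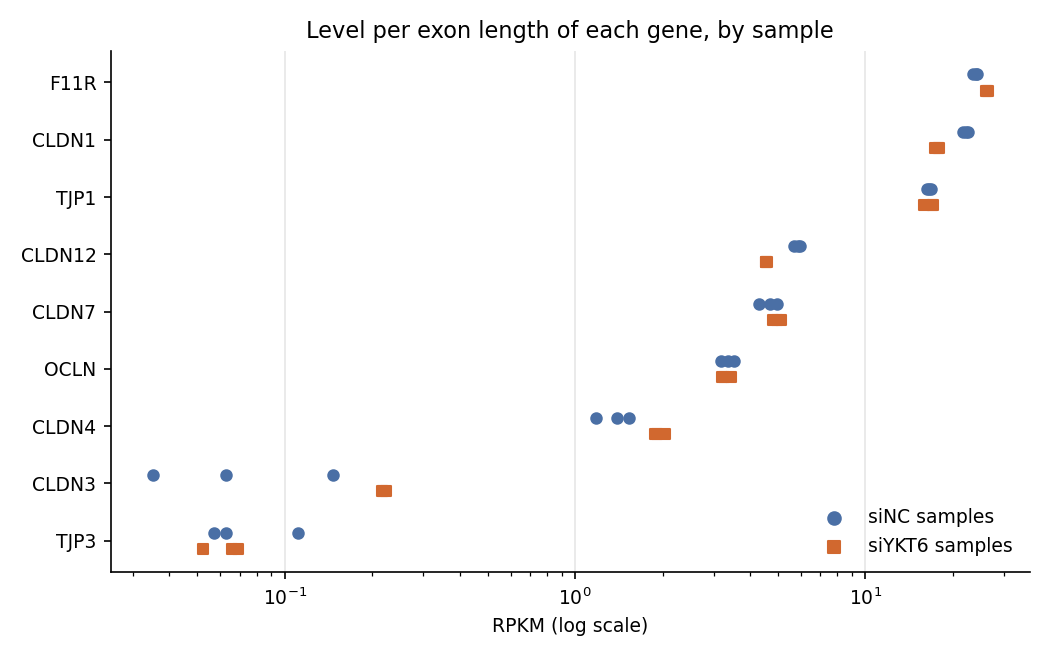
Level of each gene in RPKM (x axis, log scale) in the siNC samples (blue circles) and the siYKT6 samples (orange squares), ordered by the siNC mean. F11R, CLDN1 and TJP1 lie above 15 RPKM in every sample, and CLDN3 and TJP3 stay below 0.25 RPKM.

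With CLDN1 lower and CLDN4 higher, the make-up of the claudin RNA differed between the groups. Over the 13 claudin genes tested, CLDN1 made up 60.6, 59.6 and 59.0% of the summed RPKM in siNC and 54.9, 55.6 and 53.2% in siYKT6. CLDN12 held 15.8 ± 0.417% in siNC and 14.1 ± 0.0875% in siYKT6. The share of CLDN4 was 3.18, 3.74 and 4.18% in siNC and 5.94, 5.85 and 6.25% in siYKT6. CLDN7, whose own level did not differ beyond its error, held 12.6 ± 0.918% of a larger sum in siNC and 15.3 ± 0.431% of a smaller one in siYKT6. For these 4 genes the shares did not overlap between groups. CLDN3 stayed under 1% throughout, at 0.221 ± 0.160% in siNC and 0.677 ± 0.0130% in siYKT6.

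The summed level of the 5 claudins among the 9 genes was 34.0, 34.3 and 33.8 RPKM in siNC and 29.4, 29.4 and 29.3 RPKM in siYKT6. The ratio of CLDN1 to CLDN4 in RPKM was 19.1, 15.9 and 14.1 in siNC and 9.24, 9.50 and 8.52 in siYKT6. The ratio of CLDN1 to CLDN12, the pair that fell, was 3.79 ± 0.109 in siNC and 3.87 ± 0.0717 in siYKT6, and its groups overlapped. These sums and ratios follow from the members' own values and carry no test.

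**Figure D4:**
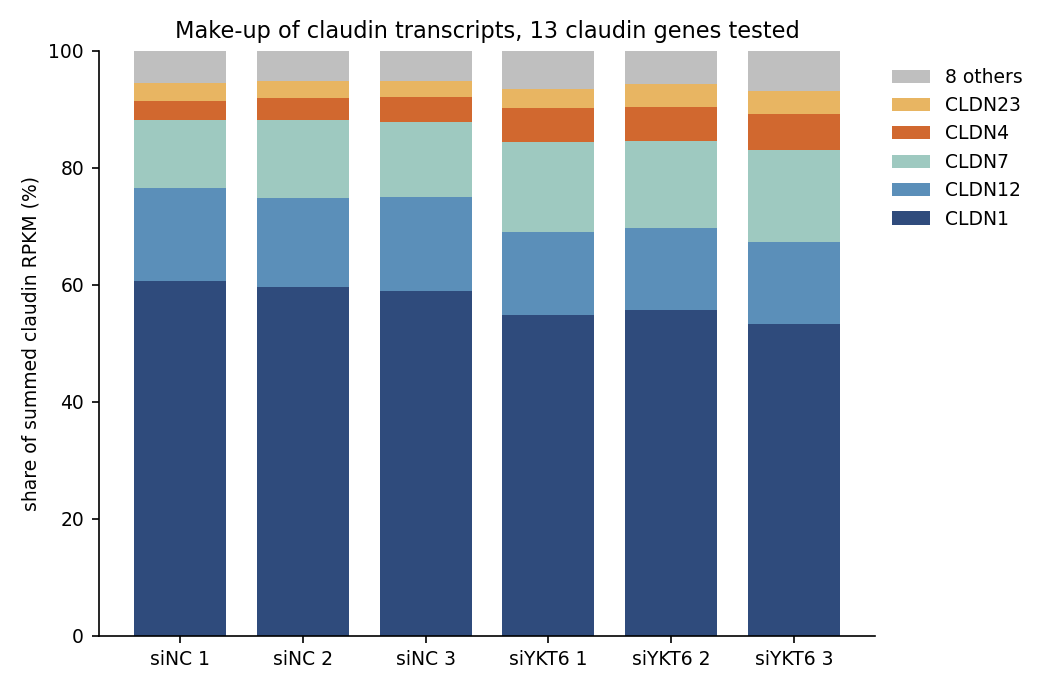
Share of each claudin in the summed RPKM of the 13 claudin genes tested (y axis, %), 1 bar per sample. The CLDN1 segment runs from 59.0 to 60.6% in the siNC samples and from 53.2 to 55.6% in the siYKT6 samples, and the CLDN4 segment from 3.18 to 4.18% and from 5.85 to 6.25%.

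The other claudins were few and low. Of 19 further claudin genes listed, 16 were in the table and 8 were tested, and the remaining 8 in the table had too few counts. None of the 8 was called by edgeR, none had an unadjusted p under 0.05, and none of the 7 or 8 that received an adjusted p from DESeq2 and limma was called by these. CLDN23 took the largest share of claudin RPKM among them, 2.91 ± 0.179% in siNC and 3.65 ± 0.393% in siYKT6 (SD, n = 3 each), and its log2 fold change of 0.14 was not called (adjusted p = 0.493, edgeR). CLDN2, which forms a pore for small cations, had a log2 fold change of -0.38 (95% interval -0.86 to 0.09, adjusted p = 0.229, edgeR). CLDN15, another pore-forming claudin, had one of 0.35 (95% interval -0.08 to 0.78, adjusted p = 0.225, edgeR), and its groups did not overlap. The intervals of CLDN10, CLDN16, CLDN18, CLDN20 and CLDN22 all reached past the log2 fold changes of CLDN1 and CLDN12, so a change of the size of that in CLDN1 or CLDN12 was not detectable in them at this depth.

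OCLN and F11R are the membrane proteins among the 9 genes that are not claudins. F11R (chr1:160995211-161021348, minus strand) encodes JAM-A, an immunoglobulin-like adhesion molecule that recruits the polarity protein PAR3 to young junctions. It was measured at 121, 119 and 122 CPM in siNC and at 133, 134 and 132 CPM in siYKT6. The difference was small but larger than the spread of the samples, at 120.8 ± 1.86 against 132.7 ± 1.10 CPM (SD, n = 3 each), a log2 fold change of 0.14 (SE 0.0332, 95% interval 0.07 to 0.21, adjusted p = 0.00315, edgeR). F11R shares 36.6% of its exonic bases, 1853 in all, with RP11-544M22.13 on the same strand. That gene rose as well, from 80.3 ± 2.24 to 90.2 ± 2.09 CPM (log2 fold change 0.17, adjusted p = 0.00129, edgeR), so the counts of both genes are uncertain where they share exons.

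OCLN (chr5:69492292-69558104, plus strand), the occludin gene, read 22.6, 21.5 and 23.8 CPM in siNC and 22.0, 23.3 and 21.6 CPM in siYKT6. The groups overlapped and the log2 fold change was -0.02 (95% interval -0.13 to 0.09, adjusted p = 0.795, edgeR). OCLN has an annotated copy, the pseudogene OCLNP1, and reads shared with it may have been counted otherwise or not at all.

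Among 12 other membrane proteins of tight junctions, 11 were tested, 2 fell and 3 rose, 18.2% and 27.3% against 16.3% and 14.6% of all genes tested. CLMP, an adhesion molecule related to the coxsackie and adenovirus receptor, fell from 16.6 ± 0.713 to 9.50 ± 0.440 CPM (log2 fold change -0.81, adjusted p = 2.6e-09, edgeR, n = 3 each), and MARVELD3, a relative of occludin, fell with a log2 fold change of -0.13 (adjusted p = 0.0131). CXADR, the coxsackie and adenovirus receptor itself, rose from 19.4 ± 1.27 to 23.3 ± 0.207 CPM (0.26, adjusted p = 0.000727, edgeR, n = 3 each). ILDR2, which like LSR and ILDR1 belongs to the angulins of the corners where 3 cells meet, and BVES, which lies at junctions with ZO-1, rose by 0.34 (adjusted p = 0.0335) and 0.18 (adjusted p = 0.0284) in log2 fold change. The other tricellular proteins on the list were not called, with log2 fold changes of -0.16 for MARVELD2 (tricellulin, adjusted p = 0.107, edgeR), 0.08 for LSR (adjusted p = 0.182) and 0.39 for ILDR1 (adjusted p = 0.672). The ILDR2 call was lost with DESeq2 (adjusted p = 0.0601) and, in edgeR, without any 1 siNC sample or siYKT6 replicate 1 (adjusted p = 0.0532 to 0.169), the BVES call without siNC replicate 1 or 3 or siYKT6 replicate 1 or 2 (0.0697 to 0.146), and the MARVELD3 call without siYKT6 replicate 2 (0.0516) or with no filter on low counts (0.0545). JAM2, JAM3 and TMEM47 were not called with all samples, at 0.44 (adjusted p = 0.0797, edgeR), 0.20 (adjusted p = 0.528) and 0.33 (adjusted p = 0.221).

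TJP1 and TJP3 are the scaffolds among the 9 genes. TJP1 (chr15:29699367-29968865, minus strand) encodes ZO-1, which binds claudins, occludin and JAM-A through its PDZ, SH3 and guanylate kinase-like modules and holds them to actin. Its samples read 189.9, 186.1 and 182.8 CPM in siNC and 192.1, 191.7 and 179.0 CPM in siYKT6. They overlapped, and the 95% interval of the log2 fold change was narrow, -0.06 to 0.08 around 0.01 (adjusted p = 0.864, edgeR). TJP3 (chr19:3708109-3750813, plus strand), the gene of ZO-3, had only 21, 12 and 17 counts in siNC and 19, 14 and 16 in siYKT6. Its log2 fold change of -0.27 had a 95% interval of -1.10 to 0.55 (adjusted p = 0.660, edgeR), so a change of the size of that in CLDN1, CLDN12 or CLDN4 was not detectable at this depth.

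Of 13 other genes on the scaffold list, all were tested, 2 fell and 6 rose, 15.4% and 46.2% against 16.3% and 14.6% of all genes tested. The list is broad, and YBX3, which fell, is a Y-box factor rather than a scaffold. AMOTL2 and AMOTL1, angiomotin-like proteins that bind junctional scaffolds and actin, rose with log2 fold changes of 0.27 (adjusted p = 2.8e-06, edgeR) and 0.21 (adjusted p = 0.000100). MAGI1, a scaffold with several PDZ modules, rose from 21.7 ± 0.376 to 26.3 ± 0.912 CPM (0.28, adjusted p = 0.000107, edgeR, n = 3 each). CGN, which encodes cingulin, a link between ZO-1 and the cytoskeleton, rose from 73.7 ± 2.99 to 87.8 ± 0.411 CPM (0.25, adjusted p = 2.0e-05, edgeR, n = 3 each). Its relative CGNL1, or paracingulin, fell (-0.13, adjusted p = 0.0258), a call lost without siNC replicate 1 or 3 or siYKT6 replicate 1 or 3 (adjusted p = 0.0537 to 0.135, edgeR), with upper quartile scaling (0.0544) and with no filter on low counts (0.0651). YBX3, the Y-box factor also called ZONAB that binds the SH3 module of ZO-1, fell from 125.3 ± 2.49 to 96.5 ± 2.61 CPM (-0.38, adjusted p = 3.5e-08, edgeR, n = 3 each). Over the 9 genes, the other claudins, the other membrane proteins and the scaffold list together, 41 genes were tested, 6 fell, 12 rose and 23 were not called. These are 14.6% lower and 29.3% higher, against 16.3% and 14.6% of all genes tested, with a median log2 fold change of 0.12 against 0.0022 over all genes tested. The 12 that rose include CLDN3, which entered the test through the siYKT6 samples, where it was high. They also include ILDR2 and BVES, and the 6 that fell include MARVELD3 and CGNL1. The calls of these 4 were lost when certain single samples were left out.

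**Figure D5:**
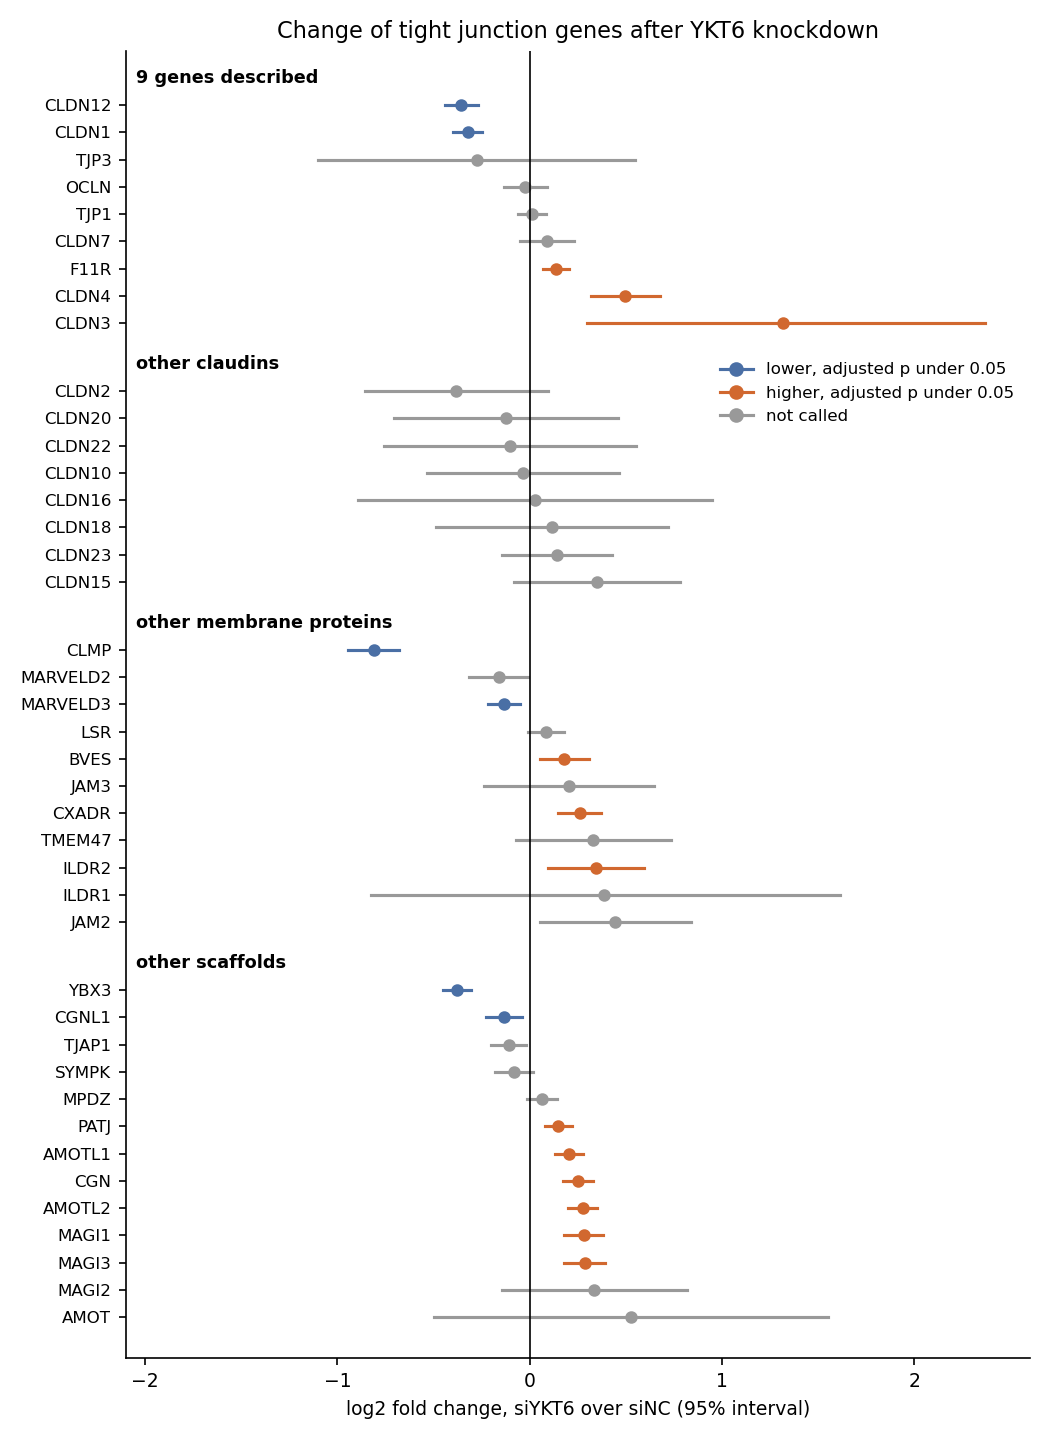
Log2 fold change (x axis, siYKT6 over siNC) with its 95% interval for the 9 genes and for the other claudins, membrane proteins and scaffolds tested, from the edgeR fit of 3 against 3 samples, coloured by the call. CLDN12 and CLDN1 lie below 0 and F11R, CLDN4 and CLDN3 above it, and the intervals of the 8 other claudins all cross 0. Of the 13 other genes on the scaffold list, 6 were called above 0 and 2 below it.

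The proteins that place and open tight junctions were read beside the 9 genes. Of 16 genes of the apical polarity complexes, 1 fell, PRKCI (log2 fold change -0.10, adjusted p = 0.0373, edgeR), which encodes an atypical protein kinase C, and 5 rose, among them PARD6B (0.24, adjusted p = 0.00156), LLGL2 (0.29, adjusted p = 0.00241), LLGL1 (0.29, adjusted p = 0.0158) and PRKCZ (0.17, adjusted p = 0.0277). Leaving out 1 sample ended the calls of PRKCI (any sample but siNC replicate 3, adjusted p = 0.0534 to 0.192, edgeR), LLGL1 (siNC replicate 1 or 2 or siYKT6 replicate 1, 0.0504 to 0.0904) and PRKCZ (siNC replicate 1 or 3 or siYKT6 replicate 2, 0.062 to 0.154). The PRKCI call was also lost with upper quartile scaling (adjusted p = 0.0844, edgeR) and with no filter on low counts (0.0799). The polarity genes were thus 6.25% lower and 31.2% higher, against 16.3% and 14.6% of all genes tested. Of 25 regulators, 3 fell and 9 rose, 12% and 36% against the same background. ITCH, a ubiquitin ligase that acts on occludin, ROCK2, a kinase of the actomyosin belt, and WNK1, a kinase that acts on ion transport, fell with log2 fold changes of -0.15, -0.14 and -0.14 (adjusted p = 0.00168, 0.00231 and 0.0145, edgeR), and the WNK1 call was lost without siNC replicate 1 or siYKT6 replicate 3 (-0.12 to -0.082, adjusted p = 0.0779 to 0.084). ST14, which encodes the membrane protease matriptase, STRN, CDC42 and EPCAM, whose product binds CLDN7, rose with log2 fold changes of 0.28, 0.22, 0.18 and 0.17 (adjusted p = 3.6e-06, 5.4e-05, 0.000322 and 0.000705, edgeR).

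Of 19 transcription factors known to act on junction genes, 17 were tested, 6 fell and 2 rose, 35.3% and 11.8% against 16.3% and 14.6% of all genes tested. SNAI2 and ZEB2, which repress claudin and cadherin genes through E-boxes, fell from 64.6 ± 1.51 to 51.7 ± 0.426 CPM (log2 fold change -0.32, adjusted p = 8.8e-07, edgeR, n = 3 each) and from 30.1 ± 0.0831 to 23.3 ± 0.303 CPM (-0.37, adjusted p = 1.3e-06). Of the other E-box repressors named above, ZEB1 was not called (-0.42, adjusted p = 0.179, edgeR). SNAI1 had 0 to 4 counts per sample, too few to be tested. The basal epithelial factors TP63 and KLF5 fell by more than SNAI2 and ZEB2, TP63 from 207.2 ± 2.50 to 107.5 ± 3.62 CPM (-0.95, adjusted p = 1.4e-14, edgeR, n = 3 each) and KLF5 by 0.48 in log2 fold change (adjusted p = 8.1e-09). ELF3 and FOXA1, factors of differentiated epithelium, rose with log2 fold changes of 0.25 and 0.20 (adjusted p = 0.000149 and 0.0191, edgeR). The FOXA1 call was lost without siNC replicate 2 or siYKT6 replicate 3 (adjusted p = 0.108 to 0.115, edgeR). KLF4 and TWIST1 fell as well, with log2 fold changes of -0.37 and -0.38 (adjusted p = 0.00498 and 0.00193, edgeR). GRHL1, GRHL2, GRHL3, OVOL1, OVOL2, CDX2, TFAP2A and TFAP2C were not called.

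The neighbouring junctions are given for comparison. Of 12 core genes of adherens junctions, 4 fell and 2 rose, 33.3% and 16.7% against 16.3% and 14.6% of all genes tested. NECTIN1 fell from 75.2 ± 1.53 to 43.6 ± 2.08 CPM (log2 fold change -0.79, adjusted p = 4.4e-12, edgeR, n = 3 each), CDH1, the gene of E-cadherin, fell with a log2 fold change of -0.22 (adjusted p = 6.2e-05), and NECTIN4 rose with one of 0.46 (adjusted p = 7.1e-06). Of 11 desmosome genes tested, 6 fell and 1 rose, 54.5% and 9.09% against the same background. PKP1, DSG3 and DSC3, desmosome genes of basal and stratified epithelium, fell with log2 fold changes of -1.47, -1.12 and -0.99 (adjusted p = 1.7e-11, 4.9e-13 and 1.1e-10, edgeR), against -0.32 for CLDN1 and -0.36 for CLDN12. The median log2 fold change was 0.01 over the 9 genes, -0.0070 over the adherens junction genes and -0.14 over the desmosome genes, and whether these lists differ was not tested.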

How the data were processed

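RNA was measured in 6 samples of 5637 cells, 3 siNC and 3 siYKT6, with 45205238 to 64982015 counts per sample, which leaves genes such as CLDN3 and TJP3 with few counts. The authors made stranded mRNA libraries, and per the labels the reads went through fastp 0.23.0, the GRCh38 build and featureCounts (Subread 1.5.1). Raw, unscaled counts per gene were deposited. Not given in the sources used here were the aligner, the strand setting and the treatment of read pairs. The deposited table also gives the exon length of each gene.

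In R 4.3.3, genes were filtered with filterByExpr, which left 21036 of 36887, scaled by the trimmed mean of M values, and tested with the quasi-likelihood test of edgeR 4.0.16 with Benjamini-Hochberg adjustment over all genes tested and a threshold of 0.05. The study's own tool, DESeq2 (1.42.0), limma-voom (3.58.1), other scalings and filters, halved counts, a replicate block and leaving out each sample were tried as alternatives. No 2 samples of a group were duplicates, their counts differing by 3.62 to 6.01 in chi-square per gene, against 33.6 to 40.0 for samples of different groups.

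The 9 genes and all lists were chosen with earlier results of these data known. All 9 were named, and of each other list at most 4 genes called with the smallest p in each direction, except that every tested claudin and membrane protein could be named. Further transcription factors, KLF4, TWIST1 and ZEB1 among them, were named beside these and were not followed under the alternatives. Genes sharing exons, CTB-13L3.1 and RP11-544M22.13 among them, and the example markers were named for the values they stand beside. Overlaps and gene positions were read from the exons given in the deposited count table, promoters from RefSeq. Protein sequences were not analysed here. Some junction genes are not reported here and were left out of the lists and their counts.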

Additional observations from a re-analysis of the deposited data

How the results depend on the processing

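The 9 genes gave 120 values under the alternatives, of which 109 kept their direction and their side of the threshold. CLDN1 ranged from -0.34 to -0.30 in log2 fold change, CLDN12 from -0.37 to -0.34, CLDN4 from 0.41 to 0.59 and F11R from 0.12 to 0.15, and all 4 were called in each of 14 alternatives. CLDN3 lost its call in 6 of 11, and had no value with DESeq2, with halved counts or with at least 1 CPM in every sample. The number of the 9 genes called higher was 2 to 3 when a sample was left out, and 2 were called lower each time. Some genes changed sign when a sample was left out, and none of these was called. Among the 9 genes they were OCLN, within -0.059 to 0.016, TJP1, within -0.0061 to 0.043, and TJP3, within -0.44 to 0.057. Among the others they were CLDN10 (-0.26 to 0.11), CLDN16 (-0.19 to 0.29), CLDN20 (-0.30 to 0.068), CLDN22 (-0.24 to 0.13) and JAM3 (-0.034 to 0.37). The CLDN16 log2 fold change was also reversed with limma-voom, at -0.021 and again not called, and the cause was not tested. Of 755 values of the other named genes, 708 kept direction and call, 35 lost the call and 12 changed sign. The order of the 9 genes by level per length was the same in TPM as in RPKM.

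No pairing by replicate number was visible. Deviations from the group means of same-numbered samples correlated at -0.0034, -0.07 and 0.0055, and those of differently numbered samples at -0.046 to 0.057. Such values cannot show whether the samples were paired when they were made. With a replicate block 3312 genes were lower and 2958 higher, against 3419 and 3066 without it, and the 5 calls among the 9 genes stood, while ILDR2 lost its call (adjusted p = 0.0508, edgeR). Among the 9 genes, depth limits CLDN3 and TJP3 most, with at most 21 counts in any sample.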
